A study of Mus musculus with 48 samples.

Results

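The interleukin-1 family and its receptors were followed through bulk RNA-sequencing of 4 cell types of the neurovascular unit (NVU) after stroke. The 10 genes, chosen by name from the 24973 genes of the deposited table, were the agonist ligands *Il1a*, *Il1b*, *Il18* and *Il33*, the receptor antagonist *Il1rn*, the receptors *Il1r1* and *Il1rl1*, the decoy receptor *Il1r2*, the shared accessory subunit *Il1rap* and the soluble inhibitor *Il18bp*. All 10 had a row in the table. Adult male wild-type C57BL/6 mice, aged 12 to 15 weeks, underwent transient middle cerebral artery occlusion (tMCAO) for 60 min and were killed 24 h after its onset. The sort separated microglia, astrocytes, endothelial cells and pericytes at the same time, from the ipsilateral (ischemic) and the contralateral hemisphere of pools of 3 to 4 mice, and gave 8 groups of 6 libraries, 48 in all. The contralateral hemisphere of the same operated mice was the control, so that no group came from unoperated animals, and both hemispheres of a replicate shared their mice.

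Interleukin-1 alpha and beta signal through the receptor encoded by *Il1r1*, which needs the accessory protein encoded by *Il1rap*. The antagonist encoded by *Il1rn* occupies the same receptor without signaling, and the receptor encoded by *Il1r2* binds the ligands but lacks the intracellular signaling domain. Interleukin-33 is a nuclear alarmin set free by damaged cells and uses the receptor encoded by *Il1rl1* (ST2) with the same accessory protein, whereas interleukin-18 has receptors of its own and is neutralized by the protein of *Il18bp*. In the injured brain, microglia and entering leukocytes are known sources of interleukin-1, and brain endothelial cells are a classical target.

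The deposited values are normalized counts, that is, reads per gene divided by a size factor of the library. From the spacing of the low values, the libraries held between 4940000 and 17070000 reads on genes, with a median of 11845000. In these libraries 3 reads were worth 1.99 to 7.10 normalized counts, which bounds the counting error alone. Titles and column names disagreed on the cell type of 12 libraries (ipsilateral pericytes and microglia), and the column names were used. All 16 of 16 sorting and identity markers separated the 12 libraries of their cell type from the other 36 under those names. Microglial RNA was present in the other sorted cells, although the gates for them excluded cells with the leukocyte antigen CD45, and its amount differed between replicates 1 to 4 and replicates 5 and 6. In ipsilateral libraries of replicates 1 to 4, the sum of 10 microglial markers stood at 2.99% to 17.0% of the mean of ipsilateral microglia in endothelial cells, 3.73% to 20.5% in pericytes and 1.71% to 8.14% in astrocytes. In replicates 5 and 6 these shares were at most 0.364%, 0.107% and 0.393%. Values of these 2 sets of replicates are therefore given side by side.

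Promoter sequences of the members were read from RefSeq (build GRCm38.p6), from 250 bases before to 50 bases after each annotated start, and all 10 members matched, with 15 such windows. The 4 windows shown belong to *Il1a* and *Il1b*, the members with the highest levels in contralateral microglia, and to *Il1rn* and *Il33*, the members called between hemispheres in astrocytes once replicates were paired. They lie at chr2:129309923-129310222 on the minus strand (*Il1a*), chr2:129371090-129371389 on the minus strand (*Il1b*), chr2:24336610-24336909 on the plus strand (*Il1rn*, the first of 3 annotated starts) and chr19:29924863-29925162 on the plus strand (*Il33*, the first of 2 starts). Capitals mark the AP-1 motif TGANTCA and the core GAGGAA of sites of PU.1, a myeloid transcription factor, each searched on both strands.
Il1a: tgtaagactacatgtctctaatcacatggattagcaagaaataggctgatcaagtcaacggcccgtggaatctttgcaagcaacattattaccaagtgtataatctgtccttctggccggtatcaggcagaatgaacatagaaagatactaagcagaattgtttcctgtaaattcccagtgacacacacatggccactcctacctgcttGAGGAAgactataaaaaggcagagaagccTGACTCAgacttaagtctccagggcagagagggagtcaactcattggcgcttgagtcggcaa
Il1b: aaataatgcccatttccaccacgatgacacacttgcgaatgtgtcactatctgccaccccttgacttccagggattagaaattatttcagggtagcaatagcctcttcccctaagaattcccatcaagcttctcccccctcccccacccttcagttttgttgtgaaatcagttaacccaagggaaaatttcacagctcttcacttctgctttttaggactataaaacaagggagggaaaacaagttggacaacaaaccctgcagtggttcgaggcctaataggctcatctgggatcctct
Il1rn: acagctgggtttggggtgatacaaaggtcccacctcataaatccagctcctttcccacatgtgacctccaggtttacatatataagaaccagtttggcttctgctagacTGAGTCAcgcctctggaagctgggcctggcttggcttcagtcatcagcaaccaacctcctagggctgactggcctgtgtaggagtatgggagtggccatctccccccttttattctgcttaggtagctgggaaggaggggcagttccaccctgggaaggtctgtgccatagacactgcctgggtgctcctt
Il33: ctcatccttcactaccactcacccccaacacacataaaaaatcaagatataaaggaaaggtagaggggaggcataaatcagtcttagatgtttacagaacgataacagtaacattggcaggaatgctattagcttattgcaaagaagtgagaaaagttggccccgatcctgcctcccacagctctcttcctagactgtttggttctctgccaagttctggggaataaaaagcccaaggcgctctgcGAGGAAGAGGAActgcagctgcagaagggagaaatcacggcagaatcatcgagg

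The window of *Il1a* held 1 PU.1 core and 1 AP-1 motif, which did not overlap. *Il1rn* had 1 AP-1 motif, *Il33* had 2 adjacent PU.1 cores at its start, and *Il1b* had neither motif in this window. Among all 32851 windows, 28.3% held the PU.1 core and 7.81% the AP-1 motif, against 3 and 2 of the 15 windows of the members. The kappa B consensus, bound by NF-kappa B, was found in 1 of 15, in the second window of *Il1r1*, and in 8.46% of all windows. These matches describe letters only. The libraries do not tell the annotated starts apart.

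To learn which NVU cell makes which part of the system, levels were first compared between cell types in the 24 contralateral libraries, by limma on log2(normalized count + 1). Each test used 1 spread per gene shared by the 4 cell types. Where cell types are said below not to differ beyond their spread, that shared spread is meant. For 8 of the 10 members, 1 cell type stood above each of the other 3 with an adjusted p of at most 0.05 and a difference of at least 1.5-fold, a pattern met by 36.0% of the 15103 genes tested. Microglia led for *Il1a*, *Il1b*, *Il1rn*, *Il1r2* and *Il1rl1*, and astrocyte libraries for *Il33*, *Il18* and *Il1rap*. No single leader was called for *Il1r1*, shared by endothelial cells and pericytes, or for *Il18bp*. In the ipsilateral hemisphere the same pattern held for 4 members (*Il1a* and *Il1rl1* in microglia, *Il33* and *Il1rap* in astrocytes), against 30.5% of 14846 genes. Blocking on the replicate number gave 7 such members in the ipsilateral hemisphere (against 4669 of 14846 genes) and 8 in the contralateral one (against 5594 of 15103).

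**Figure D1:**
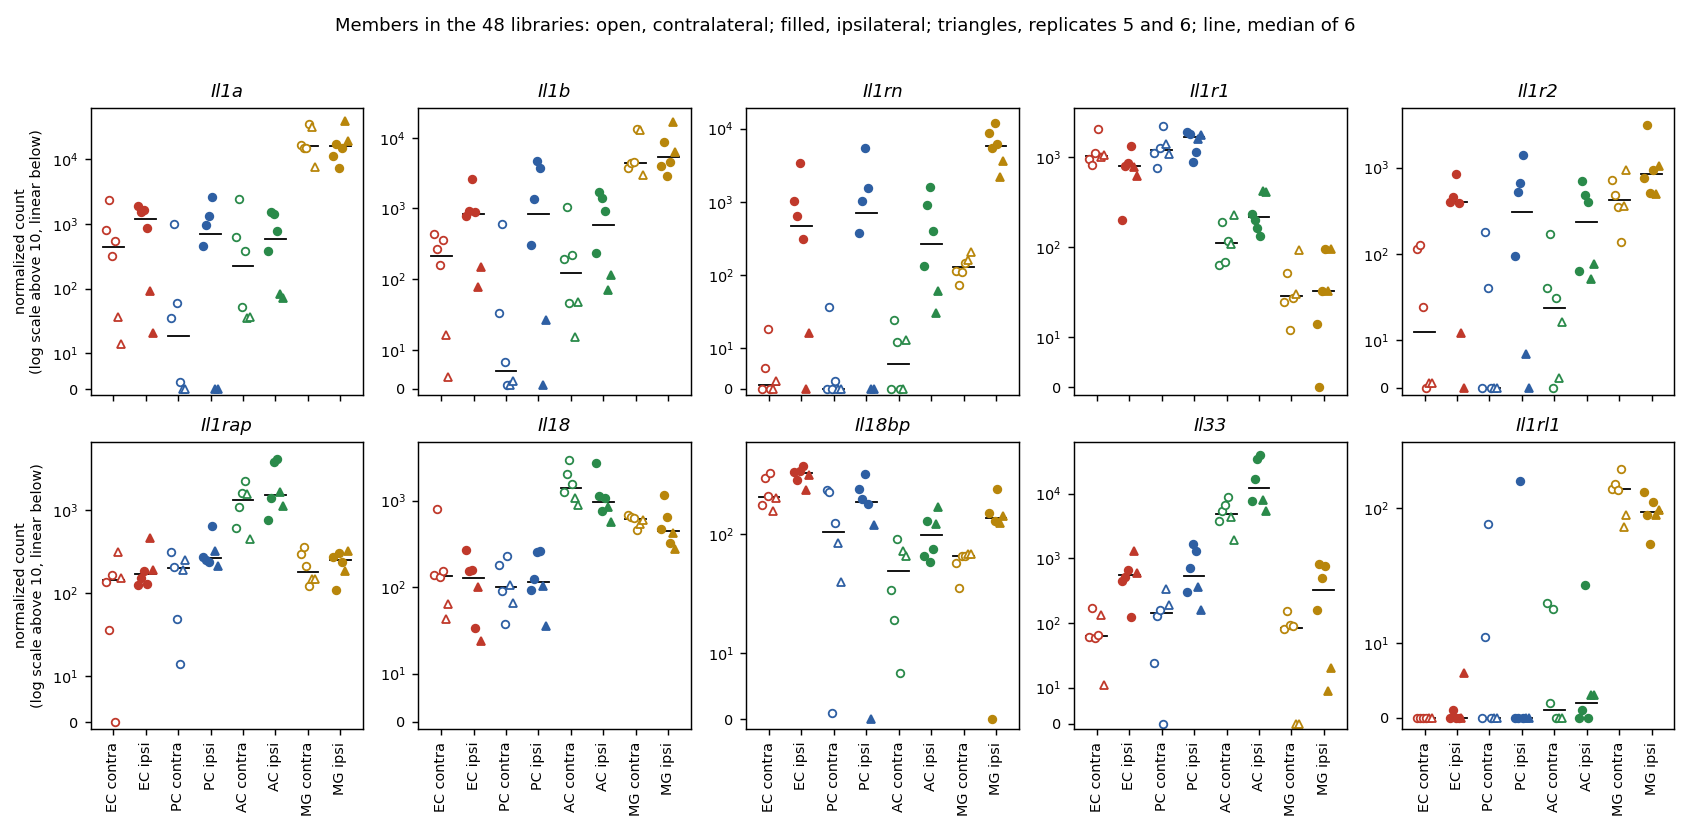
Normalized counts of the 10 members in each of the 48 libraries (vertical axis, log scale above 10) for contralateral (open) and ipsilateral (filled) microglia (MG), astrocytes (AC), pericytes (PC) and endothelial cells (EC), with the median of 6 libraries as a line and replicates 5 and 6 as triangles. Microglia hold the highest medians of *Il1a* and *Il1b* in both hemispheres, while *Il1b* in ipsilateral pericytes reaches 4702 and overlaps with microglia, and *Il1rn* in microglia lies between 73 and 205 contralaterally and between 2190 and 11995 ipsilaterally.

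Among the agonists, *Il1a* (ENSMUSG00000027399, chr2:129299610-129309972 of GRCm38, minus strand) had the highest median of all members in both hemispheres, in microglia, while the highest single library was one of *Il33* in ipsilateral astrocytes (39179). In contralateral microglia it ranged from 7451 to 34262 normalized counts with a median of 15594. The medians of contralateral pericytes, astrocytes and endothelial cells were 18.5, 219.5 and 431. Microglia exceeded astrocytes by 6.55 on the log2 scale (95% interval 3.57 to 9.52, adjusted p = 0.000436), endothelial cells by 6.20 and pericytes by 10.3. Endothelial cells and astrocytes did not differ beyond their spread (adjusted p = 0.857), and both were above pericytes (adjusted p = 0.028 and 0.0344). Both of these calls were lost with pseudocount 10 and without any 1 of replicates 1, 4 or 5, with an adjusted p of up to 0.131 and 0.144, and that of astrocytes also in replicates 1 to 4 alone (0.0826) and without replicate 6. In contralateral libraries the 10 microglial markers stood at 0.254% to 9.70% of the microglial mean in endothelial cells. Their shares were 0.326% to 6.89% in astrocytes and 0.0458% to 5.68% in pericytes, and the part of this RNA in these levels was not tested. Per kilobase of exon, *Il1a* in contralateral microglia was at 10010 ± 5305 normalized counts (SD, n = 6), *Il1b* at 3667 ± 2523, *Il18* at 573 ± 81.3 and *Il33* at 23.9 ± 20.4.

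*Il1b* (ENSMUSG00000027398, chr2:129364570-129371139, minus strand), which lies 54.6 kb from *Il1a*, was led by microglia as well. It ranged from 3015 to 13451 normalized counts in contralateral microglia (median 4429), from 3 to 432 in endothelial cells (median 212), from 15 to 1062 in astrocytes (median 121) and from 1 to 597 in pericytes (median 4.5). Microglia did not overlap with any of the other cell types. They exceeded astrocytes by 5.74 (95% interval 3.10 to 8.38, adjusted p = 0.000489), endothelial cells by 6.06 and pericytes by 9.02 on the log2 scale. Endothelial cells and pericytes did not differ beyond their spread (adjusted p = 0.0754), whereas the replicate block called endothelial cells higher (adjusted p = 0.0262). Of the exon bases of *Il1a*, 11.2% are shared with *Gm14023* on the opposite strand, and *Il1b* shares 25 bases with *Il1bos*; reads that fell on several genes were left out by the authors' counting.

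Both genes were high in microglia of either hemisphere, and the difference between hemispheres was not larger than the spread between replicates. *Il1a* ranged from 7348 to 38438 in ipsilateral microglia (median 15783.5) and was higher on the ipsilateral side in 3 of 6 pairs, with a log2 change of -0.16 ± 0.40 (SE, adjusted p = 0.823, 95% interval -1.01 to 0.69). For *Il1b* the ipsilateral range was 2913 to 16584 (median 5409) and 4 of 6 pairs were higher, with a log2 change of 0.05 ± 0.45 (adjusted p = 0.951, 95% interval -0.90 to 1.01). In replicates 1 to 4 alone the change of *Il1b* was -0.28 and in replicates 5 and 6 alone 0.71; for *Il1a* the values were -0.65 and 0.82. The sum of 10 immediate early genes, known to rise during tissue dissociation, ranged from 222649 to 619301 normalized counts in contralateral and from 130803 to 236839 in ipsilateral microglia, and its part in these levels was not tested.

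In each of the other 3 cell types *Il1b* was higher ipsilaterally in most pairs, but no call was made. The ipsilateral library was the higher of its pair in 6 of 6 replicates of endothelial cells (medians 212 and 841.5), 6 of 6 of astrocytes (121 and 581.5) and 5 of 6 of pericytes (4.5 and 835.5), while the groups overlapped in each. The log2 changes were 2.57 ± 1.16 (adjusted p = 0.393) in endothelial cells, 1.88 ± 1.02 (adjusted p = 0.62) in astrocytes and 4.60 ± 1.93 (adjusted p = 0.276) in pericytes. Relative to the mean of ipsilateral microglia, *Il1b* in replicates 1 to 4 reached 10.9% to 36.0% in ipsilateral endothelial cells, 4.17% to 65.5% in pericytes and 3.25% to 23.8% in astrocytes. Replicates 5 and 6 reached 1.07% to 2.05%, at most 0.362%, and 0.961% to 1.57%. Between the 2 sets of replicates these shares differed in the same direction as those of the microglial markers. Within replicates 1 to 4 of endothelial cells the 2 shares did not always rise together. Replicate 4 had markers at 2.99% and *Il1b* at 12.6%, and replicate 1 had 9.62% and 10.9%. The part of microglial RNA in the *Il1b* of other cells was not tested. For *Il1a*, the log2 changes were 0.91 ± 1.32 in endothelial cells (adjusted p = 0.846), 2.97 ± 2.32 in pericytes (adjusted p = 0.577) and 1.08 ± 1.11 in astrocytes (adjusted p = 0.825).

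*Il1rn* (ENSMUSG00000026981, chr2:24336853-24351494, plus strand), the natural antagonist of both ligands, had the largest difference between hemispheres. In microglia it ranged from 73 to 205 normalized counts (median 128.5) contralaterally and from 2190 to 11995 (median 5722.5) ipsilaterally, so that the groups did not overlap and 6 of 6 pairs were higher on the ipsilateral side. The means were 134 ± 45.9 and 6323 ± 3573 (SD, n = 6). The log2 change of 5.42 ± 0.36 (SE, adjusted p = 1.43e-06) was called. It was 6.15 in replicates 1 to 4 and 3.95 in replicates 5 and 6. *Il1rn* was the only member called in microglia, 1 of 10 tested, where 10.6% of the 13300 genes tested were called. Sums of markers of other myeloid cells had higher medians in ipsilateral than in contralateral microglia, with *Csf3r* left out of the neutrophil list after seeing the data. The sum of the other 9 neutrophil genes ranged from 90 to 1070 normalized counts in contralateral and from 1575 to 18833 in ipsilateral microglia. That of 8 genes of monocytes and border macrophages ranged from 405 to 2147 and from 1288 to 4944. *Csf3r*, which microglia express, ranged from 5562 to 7882 contralaterally and from 718 to 3457 ipsilaterally. With it included, the neutrophil sum would be lower ipsilaterally in each pair but that of replicate 2. The microglial gate took cells low in CD45 and positive for CD11b, which is meant to leave out leukocytes with much CD45, and the part of these cells in the *Il1rn* of microglia was not tested. Per kilobase of exon, the log2 ratio of *Il1rn* to *Il1b* had a median of -7.09 in contralateral microglia (-8.03 to -5.38) and of -1.68 in ipsilateral microglia (-4.45 to 0.50), 2 ranges that did not overlap, and *Il1rn* exceeded *Il1b* in 1 of 6 ipsilateral libraries.

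**Figure D2:**
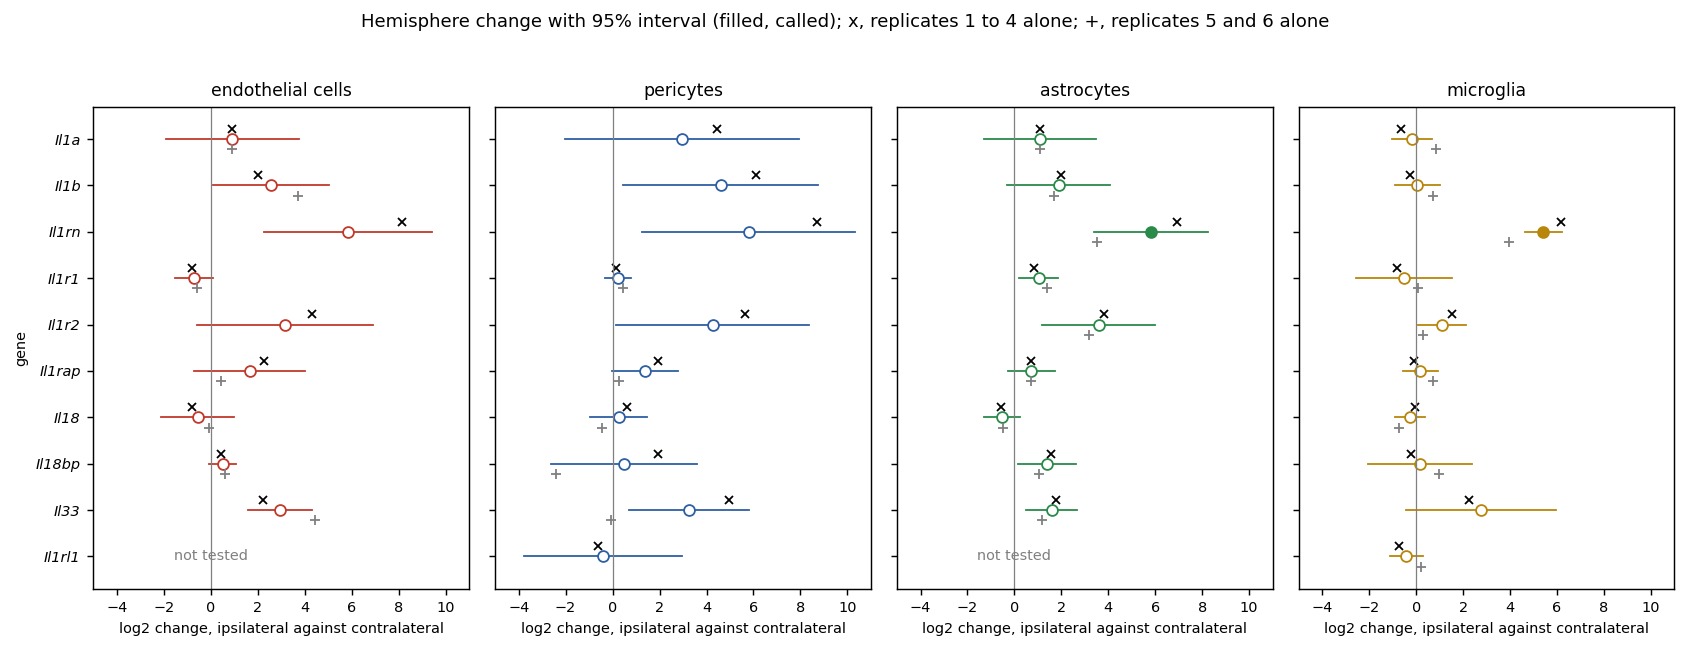
Log2 change of each member, ipsilateral against contralateral (horizontal axis), with its 95% interval in the 4 cell types; filled circles are called, crosses are replicates 1 to 4 alone and plus signs replicates 5 and 6 alone, left out where the mean fell below the filter. *Il1rn* is the member with the largest change in every cell type, and the intervals of *Il1a* and *Il1b* in microglia span 0.

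In astrocytes, *Il1rn* ranged from 0 to 24 normalized counts (median 6) contralaterally and from 30 to 1577 (median 265) ipsilaterally, again without overlap and with 6 of 6 pairs higher. The log2 change was 5.81 ± 1.14 (adjusted p = 0.0466), the only call among the 9 members tested in astrocytes, against 0.341% of 15264 genes. This call lay at the threshold. Leaving out any 1 of replicates 1 to 5, another pseudocount or another filter ended it, and it held with the replicate block (adjusted p = 0.00443). Over all alternatives the adjusted p ranged from 0.0035 to 0.998. Within replicates 1 to 4 the change was 6.95 and within replicates 5 and 6 it was 3.54.

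No member was called in endothelial cells (0 of 9 tested, against 0.491% of 13242 genes) or in pericytes (0 of 10, against 1.02% of 13597 genes) by limma. This included *Il1rn*. In endothelial cells it ranged from 0 to 18 contralaterally (median 1) and from 0 to 3435 ipsilaterally (median 472), with a log2 change of 5.83 ± 1.68 (adjusted p = 0.156), and in pericytes from 0 to 36 (median 0) and from 0 to 5455 (median 704), with a change of 5.80 ± 2.11 (adjusted p = 0.204). The 4 ipsilateral libraries of replicates 1 to 4 lay between 313 and 3435 in endothelial cells and between 369 and 5455 in pericytes. The values of replicates 5 and 6 were 0 and 16 in endothelial cells and 0 in both libraries of pericytes. With replicates 1 to 4 alone *Il1rn* was called in both cell types (adjusted p = 0.0205 and 0.0362), the lowest values over the alternatives, which reached 0.376 and 0.487. Relative to the mean of ipsilateral microglia over all replicates, *Il1rn* in replicates 1 to 4 stood at 4.95% to 54.3% in endothelial cells, 5.84% to 86.3% in pericytes and 2.09% to 24.9% in astrocytes. The highest share was in replicate 3 for each, and *Il1rn* in ipsilateral microglia was itself highest in that replicate (11995). Replicate 3 also had the largest share of microglial markers in all 3 (17.0%, 20.5% and 8.14%). The part of this RNA in the *Il1rn* of endothelial cells, pericytes and astrocytes was not tested. In bulk RNA of sorted cells, a few cells rich in a transcript and a low level in many cells cannot be told apart.

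**Figure D3:**
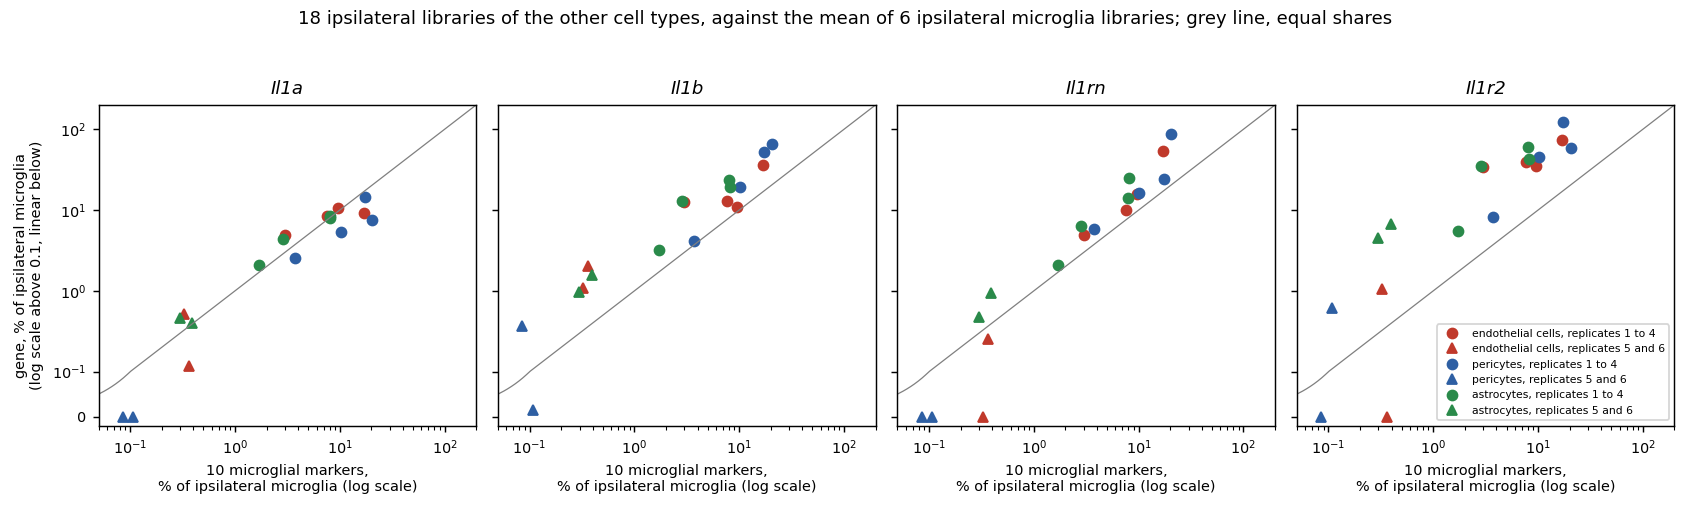
Levels of *Il1a*, *Il1b*, *Il1rn* and *Il1r2* in 18 ipsilateral libraries of endothelial cells (red), pericytes (blue) and astrocytes (green), in % of the mean of 6 ipsilateral microglia libraries (vertical axis), against the sum of 10 microglial markers in % of the same mean (horizontal axis); both axes are log scales, the vertical one above 0.1. Circles (replicates 1 to 4) lie at marker shares of 1.71% to 20.5%, triangles (replicates 5 and 6) at 0.0848% to 0.393%.

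The shares can be compared with the grey line of equal shares in the plot of microglial markers. *Il1a* lay above it in 9 of 18 libraries, with at most 14.5% in any of them, *Il1rn* in 14, *Il1r2* in 16 and *Il1b* in 17. *Il1r2* reached 121% of the microglial mean in ipsilateral pericytes of replicate 4. Neutrophil markers were summed as well. Of their list of 10 genes, *Csf3r* was kept apart, because microglia express it, and it ran the other way there, from 5562 to 7882 normalized counts contralaterally and from 718 to 3457 ipsilaterally. The sum of the other 9 genes, a choice made after seeing the data, had medians of 437 and 2580 normalized counts in contralateral and ipsilateral microglia, 116.5 and 1075.5 in astrocytes, 15 and 2664 in pericytes, and 304.5 and 2274 in endothelial cells. Its highest value, 18833, was in ipsilateral microglia of replicate 2. *Mpo* was at 0 in all libraries of both microglial groups and of both endothelial groups.

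The receptor side had a different distribution. *Il1r1* (ENSMUSG00000026072, chr1:40225080-40317257, plus strand), the signaling receptor, was highest in the vascular cell types. Contralateral levels ranged from 755 to 2211 normalized counts in pericytes (median 1196.5), from 825 to 2042 in endothelial cells (median 1033.5), from 64 to 229 in astrocytes (median 113) and from 12 to 93 in microglia (median 28.5). Pericytes and endothelial cells did not differ beyond their spread (log2 difference 0.16, 95% interval -0.66 to 0.97, adjusted p = 0.799). Endothelial cells were above astrocytes by 3.25 (adjusted p = 2.27e-07) and above microglia by 5.05 (adjusted p = 2.17e-10), and astrocytes above microglia by 1.80 (adjusted p = 0.000441). Microglia, with the highest *Il1a* and *Il1b*, had the lowest level of this receptor.

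On the ischemic side, the pairs of *Il1r1* lay in opposite directions in endothelial cells and astrocytes. Each of the 6 endothelial pairs was lower on the ipsilateral side, with a median of 790.5 (200 to 1319), and each of the 6 astrocyte pairs was higher, with a median of 216.5 (135 to 420). Neither change was called. The log2 change was -0.74 ± 0.38 in endothelial cells (adjusted p = 0.473) and 1.03 ± 0.39 in astrocytes (adjusted p = 0.441), and blocking on the replicates gave 0.308 and 0.113. The difference between both changes, -1.77 (95% interval -3.49 to -0.04), had an unadjusted p of 0.0452 and an adjusted p of 0.906 by limma, which does not pass the threshold. That model held all 48 libraries with 1 spread per gene for the 8 groups. Its SE of 0.86 therefore also held the spread of microglia, whose paired changes ranged from -5.73 to 1.79, and not that of endothelial cells and astrocytes alone. In pericytes *Il1r1* ranged from 895 to 1907 ipsilaterally (median 1672.5), a change of 0.24 ± 0.25 (adjusted p = 0.704), and in microglia it was at no more than 96 normalized counts in any library.

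**Figure D4:**
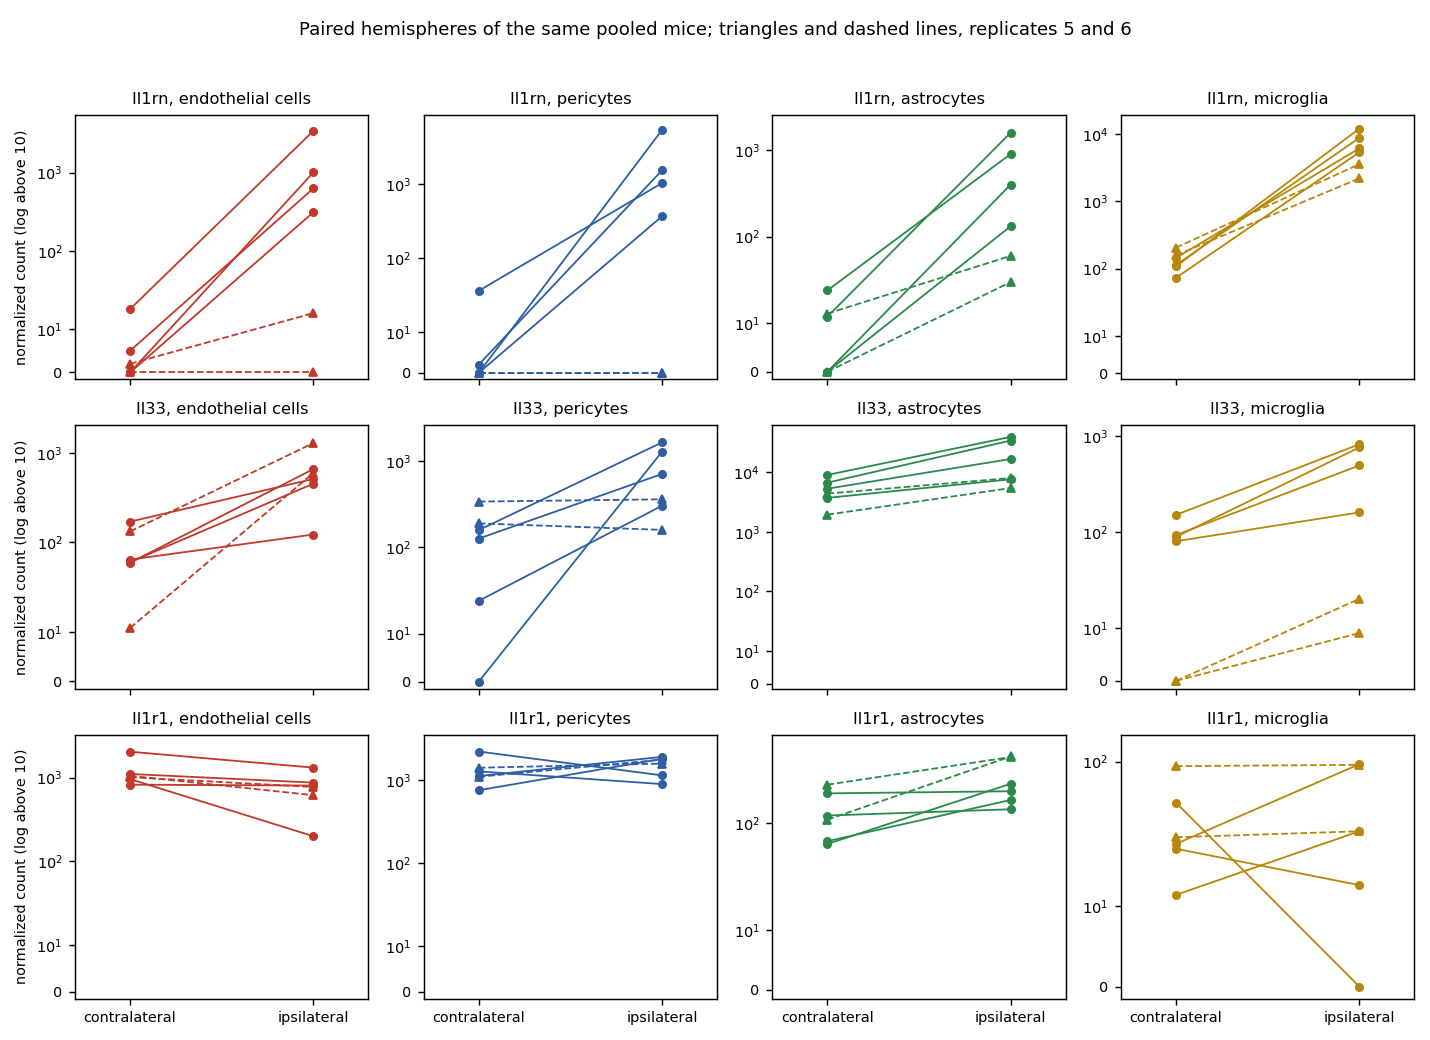
Normalized counts of *Il1rn*, *Il33* and *Il1r1* (rows; vertical axis, log scale above 10) in the contralateral and the ipsilateral hemisphere of the same pooled mice (joined points) for the 4 cell types (columns), with replicates 5 and 6 as triangles and dashed lines. *Il33* is higher ipsilaterally in 6 of 6 pairs of endothelial cells, astrocytes and microglia, and *Il1r1* is lower in 6 of 6 endothelial and higher in 6 of 6 astrocyte pairs.

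*Il1r2* (ENSMUSG00000026073, chr1:40084698-40125231, plus strand), the decoy receptor, is the neighbor of *Il1r1* at a distance of 99.8 kb and had another cell distribution. It was highest in contralateral microglia, with 137 to 943 normalized counts (median 420), against medians of 23.5 in astrocytes, 12.5 in endothelial cells and 0 in pericytes. Microglia exceeded astrocytes by 4.82 on the log2 scale (95% interval 1.80 to 7.83, adjusted p = 0.00739). In replicates 1 to 4 alone the adjusted p was 0.105 against astrocytes and 0.134 against endothelial cells, and no leading cell type was called. In ipsilateral microglia it ranged from 500 to 3099 (median 848) and was higher in 6 of 6 pairs, with overlapping groups and a log2 change of 1.11 ± 0.48 (adjusted p = 0.142). The library at 3099, replicate 2, was also the one with the highest neutrophil sum, and the part of neutrophil RNA was not tested. In astrocytes all 6 pairs were higher as well (medians 23.5 and 237, log2 change 3.59 ± 1.13, adjusted p = 0.315), and in endothelial cells and pericytes 5 of 6 (3.17 ± 1.75, adjusted p = 0.506, and 4.26 ± 1.92, adjusted p = 0.307). Ipsilateral libraries of replicates 1 to 4 held 386 to 841 normalized counts in endothelial cells and 93 to 1386 in pericytes, and those of replicates 5 and 6 held 12 and 0, and 7 and 0. The changes in replicates 1 to 4 alone were 4.33 and 5.63, and the higher values lay in the libraries with more microglial marker RNA, whose part was not tested.

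The accessory subunit *Il1rap* (ENSMUSG00000022514, chr16:26581704-26725264, plus strand) was highest in astrocyte libraries, with 441 to 2199 normalized counts contralaterally (median 1307). Medians of the other groups were 197.5 in pericytes, 177.5 in microglia and 143.5 in endothelial cells, which did not differ from each other beyond their spread. Astrocytes were above microglia by 2.45 (95% interval 0.45 to 4.46, adjusted p = 0.0371), and did not overlap with them (microglia 121 to 357). This call was lost with pseudocount 0.1 (adjusted p = 0.121), without any 1 of replicates 1, 2, 3, 5 or 6 and in replicates 1 to 4 alone. Ipsilateral astrocytes ranged from 760 to 4089 (median 1522) and were higher in 6 of 6 pairs, with a change of 0.71 ± 0.47 (adjusted p = 0.696). Per kilobase, *Il1r1* exceeded *Il1rap* in contralateral endothelial cells (183 ± 69.0 against 11.7 ± 9.69 normalized counts, SD, n = 6) and in pericytes (206 ± 77.4 against 14.8 ± 10.1), and *Il1rap* exceeded *Il1r1* in astrocytes (109 ± 58.1 against 20.4 ± 10.5). The 6 libraries of both genes did not overlap in any of these 3 cell types. Oligodendrocyte RNA was abundant in the astrocyte libraries (given below with *Il33*), and its part in their *Il1rap* was not tested.

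*Il33* (ENSMUSG00000024810, chr19:29925114-29960718, plus strand) was, like *Il18*, a ligand highest in astrocyte libraries. It ranged from 1936 to 8986 normalized counts in contralateral astrocytes (median 4823.5), and the medians were 142 in pericytes, 84.5 in microglia and 62 in endothelial cells. Astrocytes exceeded pericytes by 6.36, endothelial cells by 6.19 and microglia by 7.74 on the log2 scale, all with an adjusted p of at most 0.000282. The other 3 cell types did not differ from each other beyond their spread in all 6 replicates. In replicates 5 and 6 alone, where contralateral microglia were listed at 0, endothelial cells (5.32, adjusted p = 0.00605) and pericytes (7.99, adjusted p = 0.00074) were above microglia by limma. On the ipsilateral side astrocytes ranged from 5425 to 39179 (median 12333.5). Each of the 6 pairs was higher, by 0.87 to 2.35 on the log2 scale, while the groups overlapped.

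The change of *Il33* in astrocytes, 1.59 ± 0.51, was not called (adjusted p = 0.328), but was called with the replicate block (adjusted p = 0.00414), which raised the members called in astrocytes from 1 to 2 and the share of all genes called from 0.341% to 1.59%. Its adjusted p over the alternatives reached 1.00. All 6 pairs were higher in endothelial cells too, with 11 to 170 (median 62) contralaterally and 122 to 1286 (median 553) ipsilaterally and a change of 2.96 ± 0.64 (adjusted p = 0.0603). In microglia 6 of 6 pairs were higher (medians 84.5 and 327.5, change 2.77, 95% interval -0.43 to 5.98, adjusted p = 0.243). Blocking on the replicates gave 0.00837 there, but a call also needed every replicate of one hemisphere to exceed 10 normalized counts, and replicate 5 was at 9. In pericytes 5 of 6 pairs were higher (medians 142 and 532.5, change 3.27 ± 1.19, adjusted p = 0.204); the change was 4.94 in replicates 1 to 4 and -0.081 in replicates 5 and 6.

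RNA of oligodendrocytes, which are known to contain *Il33*, was abundant in the astrocyte libraries. The sum of 6 oligodendrocyte markers ranged from 35462 to 391936 normalized counts in astrocytes and reached at most 29642 in any library of another cell type. It had similar medians in both hemispheres of astrocytes (184186 and 167372). Divided by this sum, *Il33* had medians of 28.8 and 78.4 per 1000 oligodendrocyte counts in contralateral and ipsilateral astrocytes, and was higher ipsilaterally in 6 of 6 pairs. The corresponding medians were 25.4 and 110.9 in endothelial cells (6 of 6 pairs), 20.4 and 78.9 in microglia (6 of 6) and 42.2 and 143 in pericytes (5 of 6). Which cells in the astrocyte libraries carry *Il33* was not tested, and the level cannot be assigned to astrocytes from these values.

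**Figure D5:**
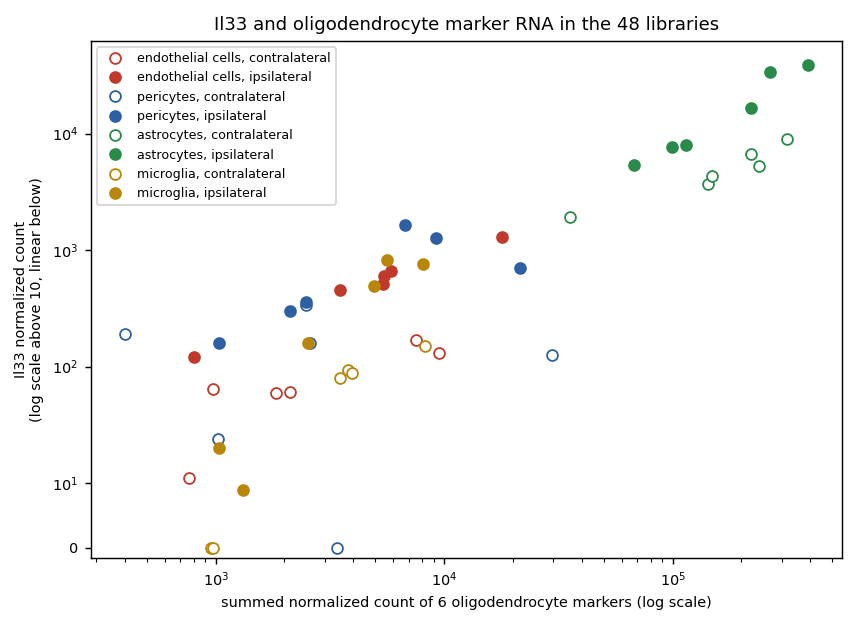
Normalized counts of *Il33* (vertical axis, log scale above 10) against the sum of 6 oligodendrocyte markers (horizontal axis, log scale) in the 48 libraries, with open circles contralateral and filled circles ipsilateral. Filled astrocyte circles (70.2 to 127 *Il33* per 1000 oligodendrocyte counts) lie above the open ones (22.1 to 54.6).

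*Il1rl1* (ENSMUSG00000026069, chr1:40429570-40465415, plus strand), the receptor of interleukin-33, was found mainly in microglia, with 73 to 195 normalized counts contralaterally (median 138.5) and 54 to 133 ipsilaterally (median 93.5). The log2 change was -0.43 ± 0.33 (adjusted p = 0.414). It was listed at 0 in all 6 contralateral endothelial libraries and at no more than 27 in any astrocyte library, so that it was tested between hemispheres in pericytes and microglia only. In pericytes 2 of 6 contralateral libraries and 1 of 6 ipsilateral libraries were above 0, and replicate 3 was highest in both hemispheres (77 and 160).

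*Il18* (ENSMUSG00000039217, chr9:50554827-50581840, plus strand) was highest in astrocyte libraries, with 885 to 2966 normalized counts contralaterally (median 1401), followed by microglia with 455 to 687 (median 611.5), endothelial cells (median 133.5) and pericytes (median 99). Astrocytes exceeded microglia by 1.35 (95% interval 0.32 to 2.39, adjusted p = 0.0263), a call lost without replicate 3 or 4 and in replicates 5 and 6 alone, and microglia exceeded endothelial cells by 2.11 (adjusted p = 0.00125), a call lost in replicates 1 to 4 alone. Endothelial cells and pericytes did not differ beyond their spread. Unlike for *Il33*, 5 of 6 astrocyte pairs were lower on the ipsilateral side (median 957), with a change of -0.54 ± 0.36 (adjusted p = 0.702). Microglia had a change of -0.27 ± 0.30 (adjusted p = 0.579). The part of oligodendrocyte RNA, given above with *Il33*, in the *Il18* of astrocyte libraries was not tested.

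*Il18bp* (ENSMUSG00000070427, chr7:102014885-102018690, minus strand), the soluble inhibitor of interleukin-18, was highest in endothelial cells, with 157 to 327 normalized counts contralaterally (median 205). The median was 104.5 in pericytes, 65.5 in microglia and 49.5 in astrocytes. Endothelial cells were above astrocytes by 2.58 (adjusted p = 0.011), while the differences from microglia (adjusted p = 0.067) and pericytes (adjusted p = 0.08) did not pass by limma. The spread shared by the 4 cell types included pericytes from 1 to 234 and astrocytes from 7 to 92. Endothelial libraries did not overlap with those of microglia (35 to 68), and did with those of pericytes. The call against astrocytes was lost without replicate 4, in replicates 5 and 6 alone and in replicates 1 to 4 with the block. Ipsilateral medians were higher in all 4 cell types (136.5 in microglia, 99 in astrocytes, 188.5 in pericytes and 325.5 in endothelial cells), with 5 of 6 pairs higher in endothelial cells, astrocytes and microglia and 4 of 6 in pericytes, and no change was called. In microglia the exception was replicate 2, listed at 0 ipsilaterally against 35 contralaterally; without that replicate *Il18bp* was called in microglia (adjusted p = 0.00901, against up to 0.999 under the other alternatives).

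Over all members, the median log2 change was 0.11 in microglia, 1.39 in astrocytes, 2.17 in pericytes and 1.65 in endothelial cells, beside -0.18, -0.06, -0.04 and -0.03 over all genes tested. In replicates 1 to 4 alone the medians of the members were -0.16, 1.56, 3.20 and 2.01, while in replicates 5 and 6 *Il1a* and *Il1rn* were listed at 0 in every library of pericytes. Microglial marker shares were taken of the mean of microglia of the same hemisphere, so both hemispheres of a pair had different denominators. In pericytes of replicates 1 to 4 the microglial marker share was itself higher in each ipsilateral library than in its pair, 0.147% to 5.68% contralaterally and 3.73% to 20.5% ipsilaterally. In endothelial cells of these replicates it was 1.98% to 9.70% and 2.99% to 17.0%, higher ipsilaterally except in replicate 2. In astrocytes it was 0.692% to 6.89% and 1.71% to 8.14%, higher ipsilaterally except in replicate 1. The part of this RNA in these medians was not tested. The members with a positive change numbered 6 of 10, 8 of 9, 9 of 10 and 7 of 9. To ask whether the changes differed between cell types, the 6 pairs of cell types were compared in 1 model of 48 libraries. It used 1 spread per gene for all 8 groups, so each contrast also held the spread of the cell types outside it. None of the 60 contrasts of members was called by limma, against 0.231% of the 90018 contrasts over all genes. The smallest adjusted p was that of *Il1b* in pericytes against microglia (4.55, 95% interval 0.59 to 8.50, adjusted p = 0.318). The contrast of *Il1r1* in endothelial cells against astrocytes is given above.

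Further genes of the pathway were read from fixed lists. Of 17 genes that carry the signal from the shared receptors to NF-kappa B, none was called in endothelial cells, pericytes or astrocytes. There, 0.491%, 1.02% and 0.341% of all genes were called. In ipsilateral microglia 1 of 17 was called lower, against 6.27% of all genes. This was *Nfkb1* (1325 ± 147 contralaterally and 665 ± 249 ipsilaterally, log2 change -1.07 ± 0.22, adjusted p = 0.00711). With the block *Myd88*, the adaptor of the receptors, was called in astrocytes (358 ± 123 and 683 ± 161, adjusted p = 0.0403), where the block called 1.59% of all genes. Of 9 genes for processing and release of the ligands, 6 were tested in each of endothelial cells, pericytes and astrocytes, and none was called. In microglia 1 of 8 tested was called lower, again beside 6.27% of all genes. This was the DNA sensor *Aim2* (665 ± 154 and 408 ± 98.0, log2 change -0.71 ± 0.22, adjusted p = 0.0477). Among 11 further receptor subunits and regulators, 4 had a row and none was called. One of these, *Sigirr*, an inhibitory receptor of the family, was at 2418 ± 479 in contralateral endothelial cells and at a mean of at most 34.5 in the other contralateral groups.

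Of 14 genes known to be induced by interleukin-1 in many cells, 6 were called higher in microglia (12 tested, against 4.29% of all genes), 3 in pericytes (14 tested, against 0.441%), 1 in astrocytes (12 tested, against 0.334%) and 1 in endothelial cells (14 tested, against 0.362%), and 1 was called lower, in microglia (against 6.27%). *Csf3*, a growth factor for neutrophils, rose in endothelial cells (88 ± 107 to 1199 ± 898, log2 change 4.43 ± 0.89, adjusted p = 0.0398). In pericytes the cytokine *Il6* rose from 230 ± 139 to 2605 ± 1585, and the acute phase gene *Saa3* (log2 change 6.54 ± 1.09) and the siderophore-binding *Lcn2* (2.58 ± 0.42) rose as well. *Lcn2* also rose in astrocytes (306 ± 224 to 3664 ± 1274, log2 change 3.89 ± 0.51, adjusted p = 0.00379) and in microglia (3.72 ± 0.65). In microglia *Ptgs2*, encoding cyclooxygenase 2 (1.96 ± 0.23), and the chemokines *Ccl2* (1.84 ± 0.34), *Cxcl1* (1.71 ± 0.43) and *Cxcl2* (1.30 ± 0.39) rose with *Saa3* (2.28 ± 0.48), whereas the adhesion molecule *Vcam1* fell (-0.76 ± 0.23, adjusted p = 0.0486). With the block, the genes called higher numbered 6 in microglia (against 4.54% of all genes), 5 in pericytes (against 0.684%), 7 in astrocytes (against 1.25%) and 2 in endothelial cells (against 0.378%). These genes answer to many signals, and no test here ties them to interleukin-1. The sum of 9 neutrophil genes had higher medians in the same ipsilateral groups (given above), while *Csf3r*, kept apart, was lower in ipsilateral microglia. Microglial marker shares, each of the microglial mean of its own hemisphere, were also higher ipsilaterally in replicates 1 to 4 of pericytes, endothelial cells and astrocytes. Exceptions were replicate 2 of endothelial cells and replicate 1 of astrocytes (ranges given above). The part of neutrophil and microglial RNA in these calls was not tested.

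Finally, the genes whose pattern over the 48 libraries was most like that of each member were read from Pearson's r on the log2 scale among 11853 genes. These values are a description and share the cell types, the microglial RNA and the scaling of the libraries. *Il1a* was most like *Ccl4* (r = 0.982), *Ccl3* and *Tyrobp*, all of microglia, and *Il1b* most like *Tnf* (r = 0.955), *Rac2* and *C5ar1*. *Il1rn* was most like *Cd72* (r = 0.944), *Lilr4b* and *Adam8*, and *Il1r2* most like *Osm* (r = 0.902), *Pilra* and *Cd244*. *Il1r1* was most like *Tgfbr3* (r = 0.962), *Lamb2* and *Cobll1*. *Il33* was most like *Stmn4* (r = 0.899), *Ptgds* and *Cldn11*, of which *Cldn11* is a myelin gene. *Il18* was nearest to *Nmral1* (r = 0.876), *Il1rap* to *Ric3* (r = 0.871) and *Il1rl1* to *Aup1* (r = 0.836), while *Il18bp* had no gene above 0.691 (*Vsig10l*).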

How the data were processed

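RNA of 48 sorted libraries was analysed, 6 per cell type and hemisphere. According to the methods, the authors amplified 250 pg of RNA, trimmed the reads with Trimmomatic 0.38, aligned them with STAR 2.6.1d to GRCm38, counted reads on genes with featureCounts 1.6.3 and normalized them with DESeq2 1.18.1. The deposited values are normalized counts in whole numbers, treated here as a score on no fixed scale and not as raw counts, so no count test was run. Groups come from the column names.

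Tests were made with limma 3.58.1 in R 4.3.3 (moderated, with trend, two-sided, Benjamini-Hochberg adjustment over all genes tested) on log2(normalized count + 1), which understates changes of low genes. Genes with a mean of at least 10 were tested. Hemispheres were compared in a fit per cell type of 12 libraries, and a call needed an adjusted p of at most 0.05, a change of at least 1.5-fold and every replicate of one hemisphere above 10 normalized counts. Cell types were compared in 24 contralateral libraries, and differences of changes in 48, each with 1 spread per gene shared by all groups of the fit. The fit was tested on simulated data. Alternatives were pseudocounts 0.1 and 10, filters at a mean of 0 or 50, the replicate block, rescaling, a joint fit, each replicate left out, and the 2 sets of replicates. Replicate numbers were taken to pair hemispheres because these come from the same mice. Same-numbered libraries deviated together with a mean correlation of 0.12 in microglia, 0.37 in astrocytes and 0.21 in both endothelial cells and pericytes. The lowest same-number values were -0.02, 0.02, 0.02 and -0.07 in microglia, astrocytes, endothelial cells and pericytes. Means for other numbers were -0.02, -0.07, -0.04 and -0.04 in that order. Deviations were taken from group means, which makes these means negative where the same-number mean is positive, so they are no independent comparison. A shift between the 2 sets of replicates would also raise the same-number values, so these do not test the pairing. Members, lists and rules were chosen with earlier results of these data known. All members are named, and called genes of the lists. Python 3.11.15 with pandas 2.3.3, numpy 2.4.6 and matplotlib 3.10.9 gave the summaries and plots.

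Further marker lists gave these ranges of summed normalized counts. Markers of monocytes and border macrophages (8 genes) had medians of 1404.5 in contralateral and 2385.5 in ipsilateral microglia and at most 890 in other groups. Precursors of oligodendrocytes (5 genes) reached 16428 in astrocytes, fibroblasts (5 genes) 12012 in pericytes, and neurons (5 genes) at most 1443 in any library.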

Additional observations from a re-analysis of the deposited data

Results flagged for a closer look

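In 24 of 79 groups of a member with any spread, 1 library of 6 stood apart (the gap to its neighbor took most of the range, by Dixon's test). For independent normal values the test flags about 1 group of 20. These were untransformed counts, the same replicates recurred, and only for *Il18bp* was the library apart the lowest, so that rate is no measure of chance here. Replicate 2 was the library in 11 of them. The contralateral libraries of replicate 2 were high for *Il1a* in endothelial cells (2312), pericytes (997) and astrocytes (2412), for *Il1b* in pericytes (597) and astrocytes (1062), for *Il1rn* in pericytes (36), for *Il1r2* in pericytes (179) and astrocytes (169) and for *Il18* in endothelial cells (789). They also had the highest microglial marker shares of their groups, at 9.70%, 5.68% and 6.89% of contralateral microglia; the part of this RNA was not tested. In microglia of replicate 2, *Il18bp* was low contralaterally (35) and *Il1r2* high ipsilaterally (3099). Replicate 3 was high for *Il1b* (2586) and *Il1rn* (3435) in ipsilateral endothelial cells and for *Il1rn* in ipsilateral pericytes (5455), each beside the highest microglial and neutrophil marker levels of the group, and for *Il1rn* in contralateral endothelial cells (18). *Il1rl1* stood apart in replicate 3 of contralateral (77) and ipsilateral (160) pericytes and of ipsilateral astrocytes (27), and in replicate 6 of ipsilateral endothelial cells (6).

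The remaining libraries that stood apart were replicate 5 for *Il1a* in ipsilateral microglia (38438) and for *Il1rap* in ipsilateral endothelial cells (456), replicate 4 for *Il1r1* in contralateral endothelial cells (2042) and for *Il1rap* in ipsilateral pericytes (635), and replicate 1 for *Il18* in ipsilateral astrocytes (2714). *Il1r1* was lower on the ipsilateral side in 6 of 6 endothelial pairs, with a mean log2 change of -0.74, and higher in 6 of 6 astrocyte pairs. The limma test of that difference, with 1 spread for all 8 groups, did not pass (adjusted p = 0.906).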

How the results depend on the processing

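The call of *Il1rn* in microglia held under every alternative run, with an adjusted p between 3.26e-07 and 0.033. The number of members called in astrocytes, 1, became 0 with pseudocounts 0.1 and 10, without the filter, with a mean of at least 50, in the joint fit and with replicates 5 and 6 only, 2 with the replicate block, with or without replicates 5 and 6, and 0 to 1 with single replicates left out. Over all 15264 genes tested in astrocytes, 52 were called in the main fit, 34 with pseudocount 0.1, 50 with pseudocount 10 and 242 with the block. There were 37 of 24031 without the filter, 32 of 11845 with a mean of at least 50 and 89 of 15003 in the joint fit. In endothelial cells 0 became 1 with pseudocount 10 (*Il33*) and with replicates 1 to 4 only, with or without the block (*Il1rn*). Pseudocount 10 called 75 of 13242 genes there, against 65 in the main fit. In pericytes 0 became 1 with replicates 1 to 4 only. In microglia 1 became 2 with replicates 1 to 4 only, with or without the block (*Il33*), and stayed between 1 and 2 with single replicates left out. With the block, 0 members were called in endothelial cells and pericytes and 1 in microglia, so that it changed no other call of a member between hemispheres. The 8 members with 1 leading cell type became 4 in the ipsilateral hemisphere, 5 there with replicates 1 to 4 only, and 6 to 7 with single replicates left out. They became 9 with pseudocount 10 (*Il18bp* led by endothelial cells), 7 with pseudocount 0.1 and with replicates 5 and 6 only, and 6 with replicates 1 to 4 only. Over all genes, the pattern was met by 6219 of 15103 with pseudocount 10 and 4765 of 15103 with pseudocount 0.1, beside 5432 in the main fit. It was met by 5163 of 15130 with replicates 5 and 6 only and by 4020 of 14993 with replicates 1 to 4 only. Ipsilaterally, replicates 1 to 4 gave 3154 of 14763. Single replicates left out gave 4681 to 5488. With a mean of at least 50 the members with 1 leading cell type were 6 of 8 tested, against 4151 of 11932 genes. *Il1rn* and *Il1rl1* did not reach that mean, and no other leading cell type changed. Of 60 contralateral contrasts of members between cell types, 35 were called. Over all genes, each pair of cell types had between 5147 (endothelial cells against pericytes) and 7669 (astrocytes against microglia) of 15103 called. Of the 35 calls, 9 were lost under at least 1 alternative. The block lost 0 and gained 1 (*Il1b*, endothelial cells against pericytes). Of 60 differences between cell types, 1 was called with replicates 1 to 4 and the block (*Il1b* in pericytes against microglia). The use of replicates 1 to 4 with the block, and of a block or of subsets in the ipsilateral hemisphere, was chosen after seeing the data.

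Of 38 changes between hemispheres, 10 changed sign under at least 1 alternative, and none of these was a called change. With replicates 5 and 6 only, the log2 change was 0.82 for *Il1a*, 0.082 for *Il1r1* and 0.21 for *Il1rl1* in microglia, and -0.45 for *Il18*, -2.43 for *Il18bp* and -0.081 for *Il33* in pericytes. With replicates 1 to 4 only, with or without the block, it was -0.28 for *Il1b*, -0.093 for *Il1rap* and -0.24 for *Il18bp* in microglia, and with pseudocount 0.1 it was -0.38 for *Il18bp* in microglia. With single replicates left out, changes in microglia ranged from -0.46 to 0.053 for *Il1a*, -0.15 to 0.38 for *Il1b*, -0.99 to 0.51 for *Il1r1*, -0.013 to 0.56 for *Il1rap* and -0.17 to 1.23 for *Il18bp*, and in pericytes from -0.24 to 0.49 for *Il18*, -0.90 to 1.85 for *Il18bp* and -0.51 to 0.21 for *Il1rl1*. The cause was not tested. Rescaling within each fit changed no count of members called, and no contrast of a leading cell type changed sign. The count tools were not run. The depth limits statements on values near the worth of 3 reads, such as most of *Il1rl1* outside microglia.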
